A study of Mus musculus with 28 samples.

Results

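Chromosomes 13, 18 and 19 of the mouse were described in bins of 1 Mb across 24 tumours, as log2 copy ratios from exome sequencing. The bins were chosen by position: every 1 Mb bin of these chromosomes that a copy number segment reached in all 24 tumours, apart from 1 bin of chromosome 13 and 1 bin of chromosome 19 that were left out. That gave 263 of the 2388 autosomal bins, with 117 on chromosome 13, 88 on chromosome 18 and 58 on chromosome 19. The chromosomes themselves were picked because they were lost in these tumours, so losses, their depth and the contrast of thymic lymphoma with sarcoma are given as descriptions with no test. The contrast of the p53 genotypes was tested.

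The tumours came from mice whose germline Trp53 gene, which encodes the tumour suppressor p53, had been altered. In AD mice the mutant p53 was dimeric, in RP mice it was monomeric, and the opposite allele was null (p53 AD/- and p53 RP/-), so no group had a normal p53 allele. All mice had a mixed background, 50% BALB/C and 50% C57BL6, their ages are not given in the labels, and tumours were taken at end point. Each tumour is 1 sample: thymic lymphomas number 7 per genotype and sarcomas 5 per genotype, numbered here only to name them. The series has 28 samples, of which the other 4 are ears labelled as normal controls. By the numbers in their titles, the ears match AD thymic lymphoma 1, RP thymic lymphoma 4, AD sarcoma 5 and RP sarcoma 3. Those ears are not analysed here. The study's stated purpose was to compare genomic alterations between tumours of dimeric and monomeric p53 mice. The tables held 59 to 517 segments and 211948 to 212450 markers (capture targets or windows) per tumour. Thymic lymphomas were checked at the T-cell receptor beta locus, which T cells rearrange and so lose in part. The 1 Mb bin holding it averaged -1.10 ± 0.68 in thymic lymphomas (SD, n = 14) and -0.04 ± 0.04 in sarcomas (SD, n = 10). It ranged from -1.96 to -0.08 in the thymic lymphomas, so this mark was faint or absent in some. RP thymic lymphomas ran from -1.96 to -0.79. AD thymic lymphoma 1 had -1.86, and the other AD ones ran from -0.71 to -0.08, the last in AD thymic lymphoma 3. Whether this split between the genotypes bears on the depth of the losses was not tested. The autosomal median was -0.12 ± 0.07 in thymic lymphomas (SD, n = 14) and -0.03 ± 0.03 in sarcomas (SD, n = 10), so each loss was also read after centring every tumour on its own autosomal median.

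p53 acts as a tetramer that binds DNA and switches on genes for cell cycle arrest, repair and death. Cells without it tolerate gains and losses of whole chromosomes, and thymic lymphoma is the most common tumour of mice that lack p53. In a log2 copy ratio, a tumour that lost 1 of 2 copies in every cell would read -1.0, and normal cells in the sample pull the value towards 0. Most of the bins moved together with their whole chromosome. The exceptions were long stretches in a few thymic lymphomas and short segments in both tumour types. A pair of short segments on chromosome 19 in the sarcomas held the start sites of Btaf1 and Kif11. Btaf1 encodes an ATPase that removes TATA-binding protein from DNA, and Kif11 encodes a kinesin of the mitotic spindle. The 250 bases before each start are shown, 5′ to 3′, because the segments covered them whole. These bases stood above the chromosome in 2 AD sarcomas and below it in 3 RP sarcomas. In the other sarcomas they stayed at its level. They are RefSeq sequences of build GRCm38.p6, both on the plus strand, at chr19:36925829-36926078 and chr19:37376132-37376381. Capitals mark CG pairs, of which Btaf1 had 17 and Kif11 had 24, against a median of 6.0 over the same stretch of 32851 promoters. The segments also covered whole the same stretch of their neighbours Fgfbp3 and Ide, which is not shown and had 8 and 0 CG pairs.
Btaf1: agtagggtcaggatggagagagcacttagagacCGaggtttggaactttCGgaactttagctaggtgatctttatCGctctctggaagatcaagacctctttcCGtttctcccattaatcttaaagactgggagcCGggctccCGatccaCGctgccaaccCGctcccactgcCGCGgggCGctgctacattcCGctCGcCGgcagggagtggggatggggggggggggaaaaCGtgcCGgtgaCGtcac
Kif11: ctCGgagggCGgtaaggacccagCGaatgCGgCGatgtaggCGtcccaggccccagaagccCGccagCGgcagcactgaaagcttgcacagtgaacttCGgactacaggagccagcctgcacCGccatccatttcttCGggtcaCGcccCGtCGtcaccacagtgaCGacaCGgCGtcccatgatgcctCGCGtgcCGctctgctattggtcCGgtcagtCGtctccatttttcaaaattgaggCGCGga

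Loss of chromosome 13 was the deepest on average over thymic lymphomas. It was lost as a whole in 9 of 14, against 8 each for chromosomes 18 and 19, a lead that other cutoffs did not keep. Its 117 bins run from 3000001 to 121000000 (GRCm38) and include Ptch1, the Hedgehog receptor, Pik3r1, a regulatory subunit of PI3 kinase, Tert, the telomerase reverse transcriptase, and Map3k1, a stress kinase. A bin was called lost at -0.3 or below, and a whole chromosome lost once 80% or more of its bins were, with 10% up to 80% called a partial loss. AD thymic lymphomas had chromosome 13 means from -0.78 to -0.13 with a median of -0.42. RP thymic lymphomas ran from -0.59 to -0.07 with a median of -0.38. The chromosome was lost as a whole in 4 AD and 5 RP thymic lymphomas and in part in 2 AD and 0 RP. AD thymic lymphoma 2 and RP thymic lymphoma 5 stood at the top of their groups at -0.13 and -0.07. RP thymic lymphoma 3 had -0.27 along the whole chromosome and did not pass the call. The AD sarcomas had -0.10, -0.16, -0.09, -0.13 and -0.06, and the RP sarcomas -0.04, -0.12, -0.07, -0.13 and -0.05. No sarcoma mean reached the call, and the sarcoma values overlapped only those of the thymic lymphomas with the least loss. Thymic lymphomas stood 0.31 below sarcomas as deposited (means -0.40 and -0.09) and 0.22 below after centring (means -0.29 and -0.07).

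Chromosome 18 was below 0 in all 14 thymic lymphomas and all 10 sarcomas. Its 88 bins, from 3000001 to 91000000, carry Apc, which holds β-catenin down, Smad4 and Smad2, which carry TGF-β signals, and Pmaip1, which encodes the p53-induced death protein Noxa. AD thymic lymphomas had chromosome means from -0.53 to -0.01 with a median of -0.31, and RP thymic lymphomas from -0.45 to -0.17 with a median of -0.36. The loss was whole in 4 AD and 4 RP thymic lymphomas. AD sarcomas had -0.17, -0.22, -0.27, -0.22 and -0.05, and RP sarcomas -0.15, -0.23, -0.07, -0.11 and -0.05. The sarcoma range lay inside that of the AD thymic lymphomas. RP sarcoma 2 was the only sarcoma with a partial call on any of the 3 chromosomes: its last stretch, 77119911 to 90590830, lay at -0.30, just at the limit, against -0.22 before it. After centring, chromosome 18 stayed below 0 in 10 of 10 sarcomas (mean -0.13) and in 12 of 14 thymic lymphomas (mean -0.19). The difference between the tumour types was accordingly the smallest of the 3, -0.15 as deposited and -0.06 after centring.

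Chromosome 19 was lost in more RP than AD thymic lymphomas, a count that was not tested. Its 58 bins, from 3000001 to 62000000, carry Fas, a death receptor, Men1, the menin tumour suppressor, Jak2, a cytokine receptor kinase, Chuk and Nfkb2 of the NF-κB pathway, and Scd1 and Scd2, which desaturate fatty acids. AD thymic lymphomas had means from -0.65 to -0.05 with a median of -0.29, and RP thymic lymphomas from -0.54 to -0.11 with a median of -0.35. The loss was whole in 3 AD and 5 RP thymic lymphomas and in part in 1 AD. AD sarcomas had -0.13, -0.07, -0.13, -0.11 and 0.05, and RP sarcomas 0.04, -0.19, -0.12, -0.14 and -0.01. All sarcomas lay above -0.2, and 8 of the 10 were below 0. Thymic lymphomas averaged -0.31 and sarcomas -0.08, a gap of -0.23, and after centring -0.19 and -0.05, a gap of -0.14.

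**Figure D1:**
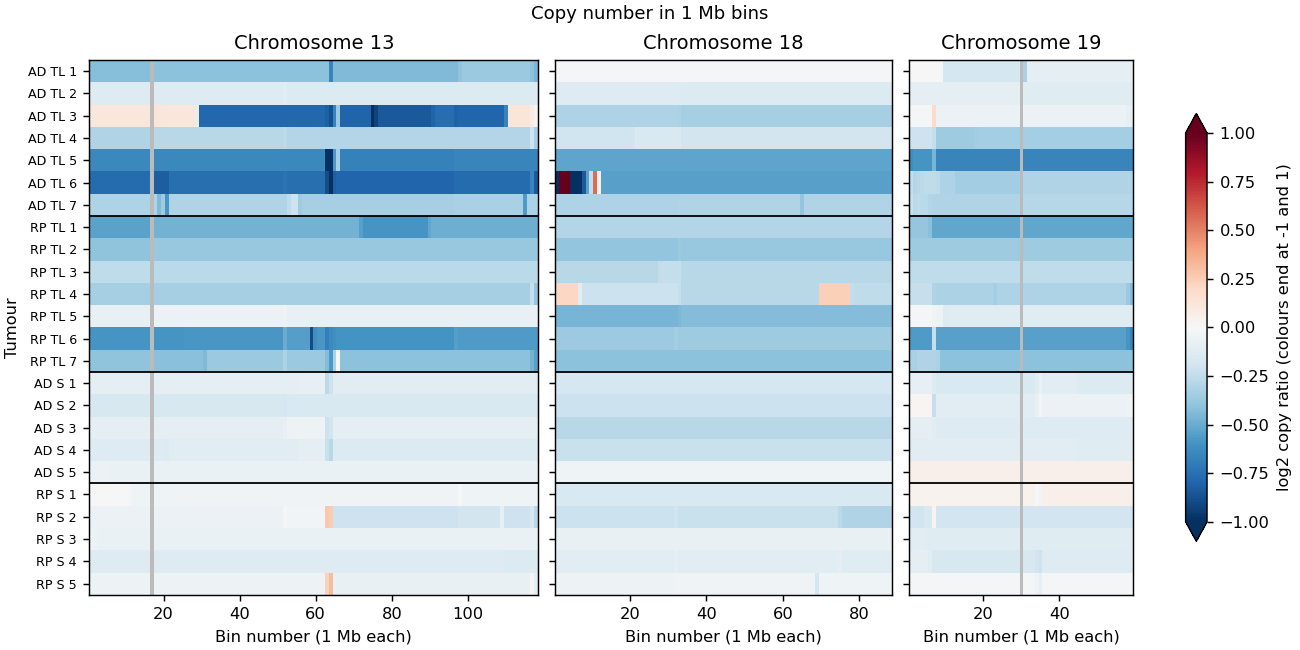
log2 copy ratio of each 1 Mb bin (columns, numbered from the first bin of each chromosome) in each tumour (rows; TL, thymic lymphoma; S, sarcoma; black lines divide the groups). Blue is below 0 and red above, colours end at -1 and 1, and grey columns are the bins left out. Blue rows run the length of a chromosome in most thymic lymphomas, AD thymic lymphoma 3 keeps both ends of chromosome 13, and short red stretches stand out on chromosome 18 of AD thymic lymphoma 6 and RP thymic lymphoma 4.

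**Figure D2:**
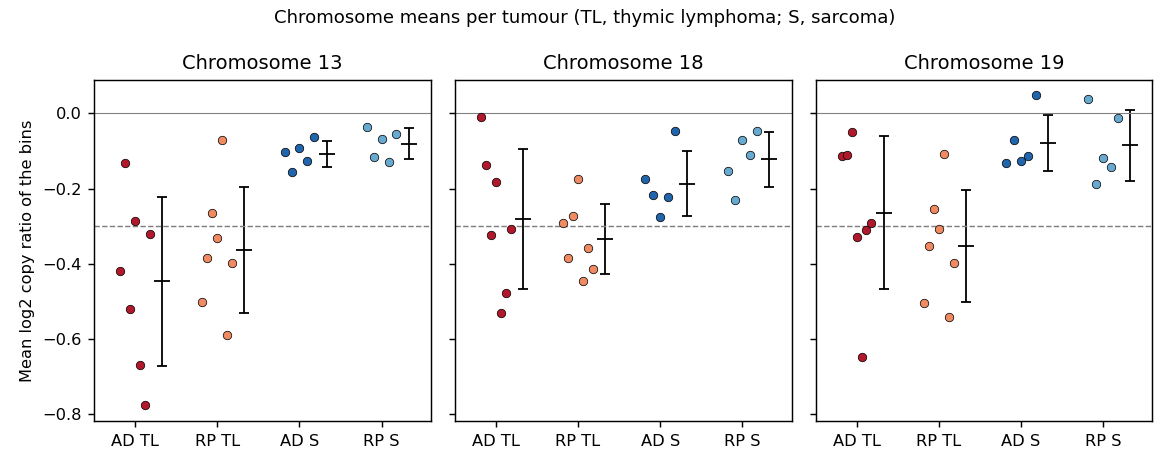
Mean log2 copy ratio over the bins of each chromosome, with 1 point per tumour and the group mean ± SD beside it (n = 7 for each thymic lymphoma group, TL; n = 5 for each sarcoma group, S). The dashed line marks -0.3. No sarcoma lies below it, and AD and RP points overlap on each chromosome.

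Many of the losses lay close to the call. At chromosome 13, AD thymic lymphoma 7 was called whole with a median bin of -0.33. AD thymic lymphoma 3 was not, at -0.78, because 69.2% of its bins were lost. At chromosome 18, AD thymic lymphoma 7 was called at -0.30 and RP thymic lymphoma 1 was not, at -0.29. At chromosome 19, AD thymic lymphoma 6 was called at -0.30 and AD thymic lymphoma 7 was not, at -0.29. Both sides of each limit therefore differ by little on chromosomes 18 and 19. Centring moved more of them: whole losses after centring numbered 3 AD and 2 RP on chromosome 13, 2 AD and 1 RP on chromosome 18, and 1 AD and 2 RP on chromosome 19. AD thymic lymphoma 7 and RP thymic lymphoma 4 had the lowest autosomal medians, both -0.25. Their chromosome 13 means after centring were -0.07 and -0.08. Chromosome 18 of AD thymic lymphoma 7 and chromosome 19 of RP thymic lymphoma 4, also called whole, were then at -0.06 each. Bin by bin, 256 of the 263 bins were lost in at least 1 in 2 thymic lymphomas, among them all 117 of chromosome 13 and all 88 of chromosome 18. Over all 2388 autosomal bins the share was 12.9% (307 bins), and since the chromosomes were chosen for their losses nothing is read from that contrast. In the sarcomas 0 of the 263 bins were lost in at least 1 in 2 tumours, against 0.0838% of all bins.

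The 3 losses met in the same tumours in 5 of 14 thymic lymphomas: AD 5 and 6, and RP 2, 6 and 7. Another 3 had 2 of them, 4 had 1 and 2 had none. The 2 with none were AD thymic lymphoma 2, where the chromosome means were -0.13, -0.14 and -0.11, and RP thymic lymphoma 3, where they were -0.27, -0.27 and -0.25. The first was nearly level and the second sat just above the call on all 3. Chromosomes 13 and 19 were lost together in 7 tumours, 13 and 18 in 6, and 18 and 19 in 5. Among RP thymic lymphomas the 5 with whole loss of chromosome 13 were the 5 with whole loss of chromosome 19. Among AD thymic lymphomas 2 lost both as a whole, AD 1 lost chromosome 13 as a whole with no call on 19, AD 7 lost 13 as a whole with a partial loss of 19, and AD 4 lost 19 as a whole with a partial loss of 13. Among the 4 tumours with 1 whole loss, it was of chromosome 13 in AD 1, of 18 in AD 3 and RP 5, and of 19 in AD 4, and AD 3 and AD 4 also had a partial loss of 13. AD thymic lymphomas 5 and 6 and RP thymic lymphoma 6 lost 0 of the other 16 autosomes as a whole, so these 3 chromosomes were their only whole losses at this call. RP thymic lymphomas 2 and 7 lost 6 and 4 of the other 16. After centring, 1 tumour kept all 3 losses, 3 kept 2, 2 kept 1 and 8 had none. These are counts with no test of association.

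AD thymic lymphoma 3 lost the middle of chromosome 13 and kept both ends. From 31807207 to 112859643, segments with at least 30 markers lay between -0.84 and -0.76, and a segment of 4 markers from 67885468 to 68445713 interrupted the loss at 0.05. Another 4 short segments of 2 to 7 markers departed from it, at -2.60, -0.44, 0.16 and 0.18. By contrast, the first part of the chromosome, up to 31630481, lay at 0.11 to 0.13 apart from 2 markers at 0.97 and the last part, from 112866795 to 119487851, at 0.12, with 0.03 from 119609191 to the end. Listed genes in the retained ends were Irf4 and Sox4, transcription factors of lymphocytes, E2f3, a cell cycle regulator, Klf6 and Gli3, transcription factors of growth control, and the metabolic genes Hmgcs1, Idi1 and Pfkp. Irf4 lay at 0.11 in this tumour, and Syk, a kinase of antigen receptor signalling inside the lost stretch, at -0.78. The lowest value was a segment of 9 markers inside the loss, 77802454 to 78024940, at -4.02 or 0.0618 of the comparison level. It covers part of Fam172a and the edge of Pou5f2, a POU-domain gene, and its 1 Mb bin averaged -1.46 in this tumour. No other thymic lymphoma had a lost stretch of chromosome 13 with both ends retained.

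Deep loss, meaning any 1 Mb bin at -0.6 or below, was seen on chromosome 13 in 4 AD and 1 RP thymic lymphomas and in 0 sarcomas. AD thymic lymphoma 6 had all 117 bins at this depth, with a mean of -0.78, and AD thymic lymphoma 5 had a mean of -0.67. In AD thymic lymphoma 1 a single bin passed, 66000001 to 67000000, at -0.66. RP thymic lymphoma 6 had 6 such bins, the lowest at -0.89, in runs from 61000001 to 63000000 and from 65000001 to 68000000 and in 1 bin from 98000001. Its lowest bin rested on a segment of 2 markers at -1.48, and its median bin on chromosome 13 was -0.59. Over all thymic lymphomas the lowest bin of the 263 was that from 66000001 to 67000000, at -0.55 ± 0.42 (SD, n = 14). Its neighbour from 65000001 averaged -0.49, and the bin of the Fam172a segment, from 77000001, averaged -0.48. In AD thymic lymphoma 5 the segment from 65691428 to 66433892 stood at -2.87 over 25 markers. The genes there are gene models and zinc finger genes without established roles. Short segments in this stretch also lay far below the chromosome in AD sarcomas 1, 3 and 4 and above it in RP sarcomas 2 and 5, as given further on. Low values here were thus not limited to tumours that lost chromosome 13, and whether the stretch differs by inheritance was not tested. On chromosome 19, deep loss covered 52 bins in AD thymic lymphoma 5 and 1 bin in RP thymic lymphoma 6.

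Chromosome 18 of AD thymic lymphoma 6 was broken near its start. From the first marker, 3122491, to 3511981 it lay at -1.14, over Crem, a cAMP-responsive transcription factor, and Cul2, a ubiquitin ligase scaffold. From 4168521 to 6638598 it stood at 1.85 over 148 markers, 3.6 times the comparison level. That stretch of 2.47 Mb holds Map3k8, the kinase Tpl2 of T cell and macrophage signalling, Zeb1, a transcription factor of T cell development, Svil, Epc1 and Kif5b. From 6765264 to 10522087 it stood at -1.11, over Rock1, a kinase of the actin cytoskeleton. Between 10523206 and 12728619 it lay at -0.54, from 12729993 to 14424867 at 0.56 over Zfp521, a zinc finger factor of blood progenitors, and from 14627284 to the end at -0.54. As deposited, no other tumour reached 0.3 over Map3k8 or Zeb1: both were gained in 1 of 14 thymic lymphomas. RP thymic lymphoma 4 lay at 0.21 over both, and with its autosomal median of -0.25 it passed 0.3 after centring. AD thymic lymphomas 6 and 7 had the most segments, 360 and 517. The part of that in the broken chromosome 18 of AD thymic lymphoma 6 was not tested.

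RP thymic lymphoma 4 also had long stretches of chromosome 18 above 0. Its first stretch, 3122491 to 9212919, lay at 0.21, and a second stretch, 72350355 to 80019553, at 0.24 over 456 markers. The other segments with at least 30 markers lay between -0.28 and -0.21, and a short segment over Matr3 at 0.17. The autosomal median of this tumour was -0.25, so most of chromosome 18 lay near that level. After centring, its chromosome 18 mean was 0.08. The second stretch holds Smad2, Smad4 and Smad7, of which Smad7 inhibits the pathway that the other two serve, together with Setbp1, a chromatin factor, Mbd1, which binds methylated DNA, Lipg, an endothelial lipase, Acaa2 of fatty acid oxidation and Me2, a mitochondrial malic enzyme. Smad4 thus stood at 0.24 in this tumour, and over the 7 RP thymic lymphomas at -0.27 ± 0.23 (SD, n = 7) against -0.29 ± 0.20 in AD (SD, n = 7). Map3k8 and Zeb1 lay in the first stretch. The 2 stretches stood 0.46 and 0.49 above the median bin of the chromosome, and both passed 0.3 after centring.

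**Figure D3:**
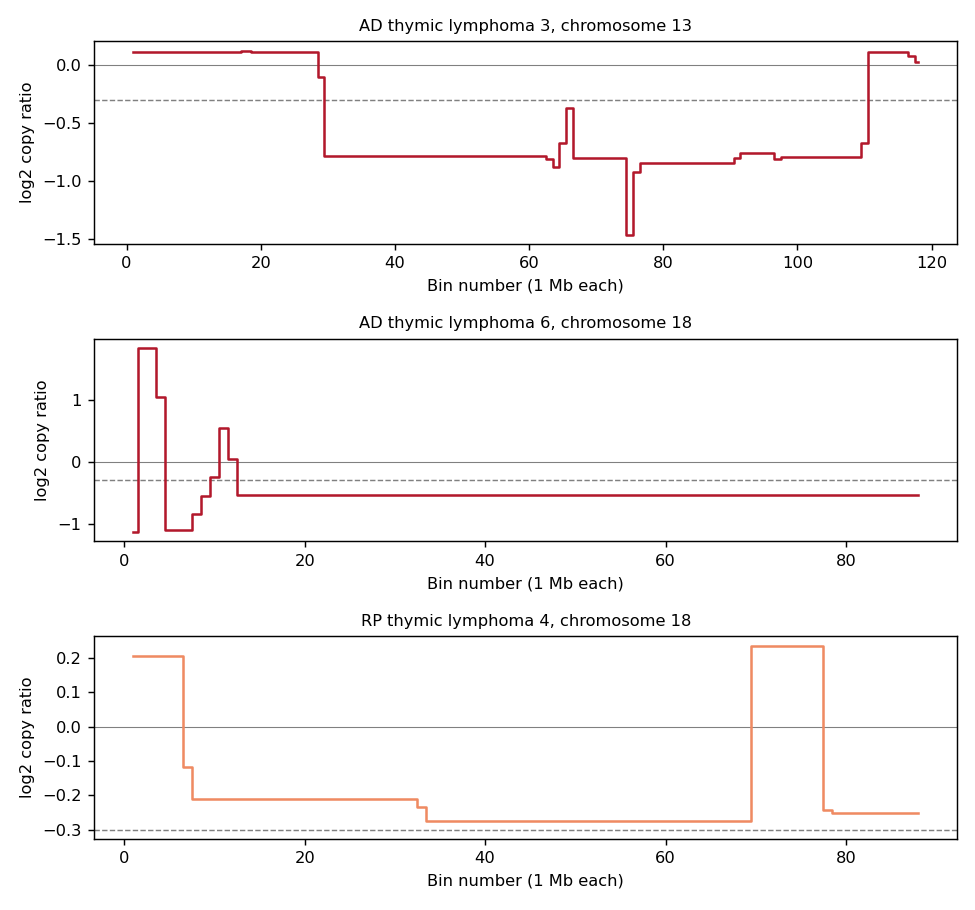
log2 copy ratio by 1 Mb bin along chromosome 13 of AD thymic lymphoma 3 and chromosome 18 of AD thymic lymphoma 6 and RP thymic lymphoma 4; the dashed line marks -0.3, and the vertical scales differ. The first panel shows the lost middle, with most segments between -0.84 and -0.76, and ends at 0.03 to 0.13, the second the stretch at 1.85 between stretches at -1.14 and -1.11, and the third the stretches at 0.21 and 0.24.

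Chromosome 19 stood higher at its start than along the rest in most thymic lymphomas, whether or not it was called lost. The 6 bins from 3000001 to 9000000 averaged -0.25 and the 51 bins from 10000001 on averaged -0.32, with the first part higher in 11 of 14 thymic lymphomas. The difference was 0.06 ± 0.05 (SD, n = 14) and ran from -0.02 to 0.14. In the tumours with no call on chromosome 19, AD 1, 2 and 3 and RP 3 and 5, it was 0.13, 0.02, 0.04, 0.0 and 0.10. In AD thymic lymphoma 5, which had the lowest chromosome 19 mean, it was 0.06. In AD thymic lymphoma 4 the level changed from -0.21 to -0.36 near 9 Mb, and in RP thymic lymphoma 1 from -0.39 to -0.52. The sarcomas had 0.03 ± 0.03 (SD, n = 10), higher at the start in 7 of 10. The start is rich in genes: in AD thymic lymphoma 3 the first segment held 30.8% of the markers of the chromosome in 10.1% of its length, and the part that marker density has in the step was not tested. Rela, the NF-κB subunit, Men1, Cpt1a, which admits fatty acids to mitochondria, Esrra and Rasgrp2 lie in the first part. Rela was lost in 5 of 14 thymic lymphomas, and Fas, further along, in 8. The split was chosen after its values were seen and has no test.

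Genes were read from 4 lists of genes on these chromosomes, drawn up with earlier results of these data known. Of 118 listed genes, 107 lay at -0.3 or below in at least 7 of 14 thymic lymphomas, and their median over thymic lymphomas was -0.32 against -0.09 over sarcomas. The same held for 256 of all 263 bins of these chromosomes and for 12.9% of all autosomal bins, so the counts for the lists follow the chromosomes they lie on. The lymphocyte list had 31 of 33 genes lost that often. It includes Syk, with an AD mean of -0.47 ± 0.26 and an RP mean of -0.35 ± 0.17 (SD, n = 7 each), Malt1 and Nfatc1 of T cell activation, Cd5 and Cd6, surface receptors of thymocytes, and Dntt, the terminal transferase of receptor rearrangement. Dntt lay at -0.27 ± 0.21 in AD and -0.36 ± 0.15 in RP thymic lymphomas (SD, n = 7 each). In growth control 29 of 31 genes were lost that often, Men1 and Fosl1 being the exceptions on chromosome 19. Ptch1 had -0.48 ± 0.25 in AD and -0.35 ± 0.16 in RP (SD, n = 7 each), and Apc had -0.28 ± 0.20 and -0.32 ± 0.11 (SD, n = 7 each). In cell cycle, repair and death 26 of 30 were lost that often, with Tert at -0.49 ± 0.26 in AD and -0.36 ± 0.16 in RP (SD, n = 7 each). In lipid and energy metabolism 21 of 24 were lost that often, with Scd1 at -0.27 ± 0.21 in AD and -0.36 ± 0.15 in RP (SD, n = 7 each). Neighbouring genes share a segment, so these values are not independent. The genes left the level of their chromosome by 0.3 or more in some tumour in 20 of 118 cases, and in sarcomas 2 of 118, Setbp1 and Nfatc1, were lost in any tumour.

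The genotype contrast showed no difference that passed the test on any of the 3 chromosomes. Chromosome 13 averaged -0.45 ± 0.23 in AD and -0.36 ± 0.17 in RP thymic lymphomas (SD, n = 7 each), a difference of -0.08, with an exact permutation p of 0.443 and 0.648 after Benjamini-Hochberg adjustment over 19 autosomes. Chromosome 18 averaged -0.28 ± 0.19 in AD and -0.33 ± 0.09 in RP (SD, n = 7 each), a difference of 0.05 with an exact p of 0.512, adjusted 0.649. Chromosome 19 averaged -0.26 ± 0.20 in AD and -0.35 ± 0.15 in RP (SD, n = 7 each), a difference of 0.09 with an exact p of 0.374, adjusted 0.609. In sarcomas the differences were -0.03, -0.06 and 0.01 on chromosomes 13, 18 and 19, with exact p of 0.278, 0.23 and 0.897, adjusted 0.66, 0.625 and 0.944. AD and RP values overlapped in all 6 comparisons, and the spread within a group was as large as the difference or larger. The sign on chromosome 19 in sarcomas turned to below 0 when AD sarcoma 5 or RP sarcoma 2, 3 or 4 was left out (-0.03, -0.02, -0.0029 and -0.0086). The AD minus RP difference itself did not differ detectably between thymic lymphomas and sarcomas. Its gaps (thymic lymphoma minus sarcoma) were -0.06, 0.12 and 0.08 on chromosomes 13, 18 and 19, with permutation p of 0.62, 0.214 and 0.453, adjusted 0.695, 0.508 and 0.615. AD thymic lymphomas had 7252 to 7255 markers on chromosome 13, while the RP ones had 7257 or 7258. AD sarcomas had 7258 or 7259, and all 5 RP sarcomas had 7257. The groups were thus not measured on an identical marker set, and an effect of that on the contrast cannot be told apart from genotype.

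Bin by bin, 0 of the 263 bins passed an adjusted p of 0.05 in thymic lymphomas by the exact permutation test, and 0.0% of the 2388 bins did (0 bins). At an unadjusted p below 0.05 the count was 0 of 263, against 9.88% of all bins (236), of which 3.02% were lower and 6.87% higher in AD. limma also called 0, and 0 of the 263 were below an unadjusted 0.05 with it. The lowest exact p among them was 0.115, adjusted 0.491. On chromosome 13 the AD mean was lower in 87 of 117 bins, and it was higher in 76 of 88 on chromosome 18 and in all 58 on chromosome 19. The median AD minus RP difference over all 2388 bins was itself above 0, at 0.04. Neighbouring bins share segments, so these counts are not independent and nothing is read from them. The largest difference on chromosome 13 was at 66000001 to 67000000, where AD averaged -0.72 ± 0.53 and RP -0.39 ± 0.19 (SD, n = 7 each), a difference of -0.33 with an exact p of 0.154. Without AD thymic lymphoma 5 it was -0.18. On chromosome 18 it was at 4000001 to 5000000, the bin of Map3k8, with AD at 0.05 ± 0.81 and RP at -0.29 ± 0.23 (SD, n = 7 each), a difference of 0.34 with an exact p of 0.376. Without AD thymic lymphoma 6 it was 0.04, so the difference rested on that tumour. On chromosome 19 it was at 61000001 to 62000000, 0.12 with an exact p of 0.248. Leaving out AD thymic lymphoma 5 brought 5 of the 263 bins below an unadjusted 0.05, with 0 called. The matching share of all 2388 bins was not counted in that setting, so nothing is read from the 5.

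In sarcomas 0 of 263 bins passed the adjusted threshold, as did 0.0% of all bins (0), and limma called 0 as well. With 5 against 5 tumours the exact test cannot go below 0.00794, and 380 of the 2388 bins would have to reach that value before any passed the adjustment. At an unadjusted p below 0.05 there were 2 of the 263, against 5.95% of all bins (142), of which 5.86% were higher in AD. These 2, the bins from 65000001 to 67000000 of chromosome 13, were lower in AD, with an exact p of 0.0238 and an adjusted p of 0.607 for each, and they were the only ones of 2388 with that direction (0.0838%). In the second of them AD averaged -0.18 ± 0.08 and RP 0.07 ± 0.20 (SD, n = 5 each). limma left the same number, 2, below an unadjusted 0.05. Without AD sarcoma 5 the count of unadjusted bins was 75 and without RP sarcoma 4 it was 53, with 0 called in either case. Without AD sarcoma 1, 2, 3 or 4 it was 0. The matching share of all 2388 bins was not counted in these settings, so nothing is read from these counts.

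**Figure D4:**
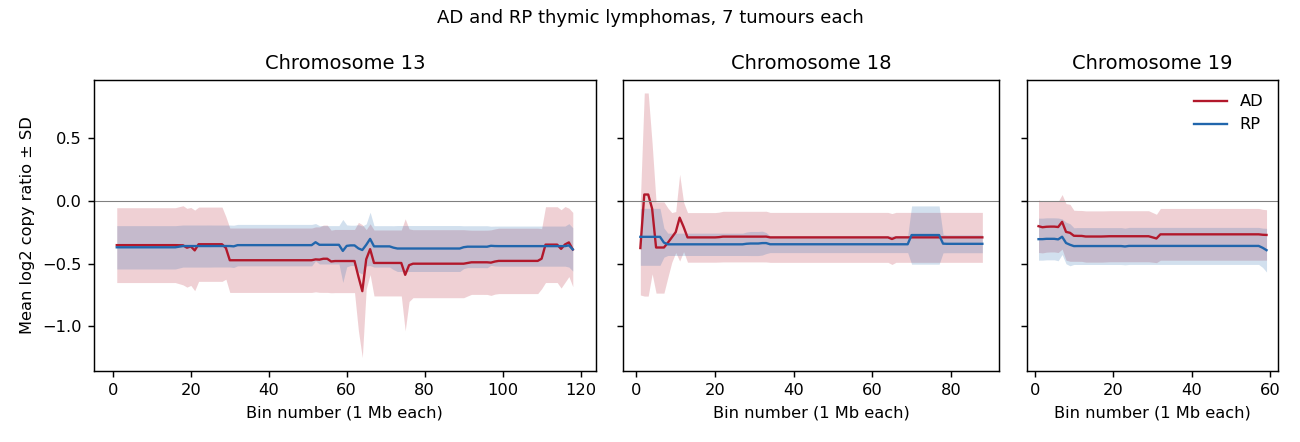
Mean log2 copy ratio (lines) ± SD (shaded) of each 1 Mb bin in the 7 AD and 7 RP thymic lymphomas, by bin number along each chromosome. The bands overlap along all 3 chromosomes; the wide AD band at the start of chromosome 18 is the bin pair around Map3k8 and Zeb1, where the AD SD was 0.81.

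Short segments with the same ends in several tumours showed a different kind of pattern in the sarcomas. On chromosome 19 a segment of 14 markers, 36918463 to 36969913, covers the first part of Btaf1 and Fgfbp3, an FGF-binding protein. A second of 26 markers, 37270741 to 37376593, covers Ide, the insulin-degrading enzyme, and the start of Kif11, whose upstream bases are printed with those of Btaf1. The Btaf1 segment lay at 0.46, 0.37, -0.13, -0.11 and 0.05 in AD sarcomas 1 to 5 and at -0.56, -0.19, -0.12, -0.80 and -0.58 in RP sarcomas 1 to 5. The Ide segment lay at 0.45, 0.36, -0.13, -0.11 and 0.05 in AD and at -0.53, -0.19, -0.12, -0.76 and -0.60 in RP. In AD sarcomas 1 and 2 both segments were above the chromosome, and in RP sarcomas 1, 4 and 5 both were below it. In the other 5 sarcomas and in all 14 thymic lymphomas neither left the chromosome. The region between them, with Cpeb3 and Marchf5, stayed near the chromosome in those 5 sarcomas, at -0.10, -0.06, 0.02, -0.16 and -0.05. Over whole bins, AD minus RP was 0.03 from 36000001 to 37000000, with an exact p of 0.563, adjusted 0.996, and 0.07 from 37000001 to 38000000, with an exact p of 0.167, adjusted 0.607. The segments were noticed in the data and have no test of their own. The mice had a mixed background and the comparison DNA is unknown. Whether these segments were inherited or arose in the tumours was not tested, so they are not read as an effect of the p53 genotype.

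**Figure D5:**
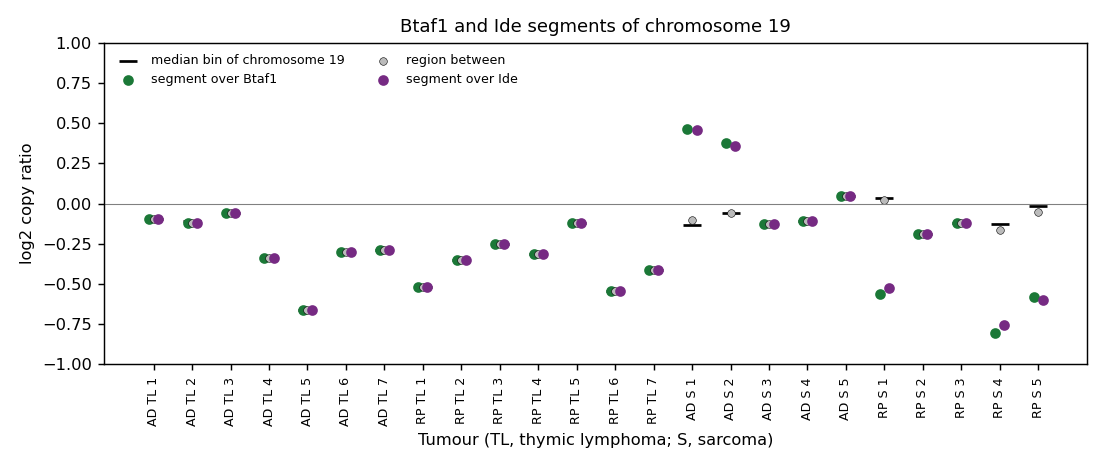
log2 copy ratio of the segments over Btaf1 and Ide, of the region between them and of the median bin of chromosome 19 (black bars), in each tumour (TL, thymic lymphoma; S, sarcoma). The points coincide in all thymic lymphomas; AD sarcomas 1 and 2 have both segments at 0.36 to 0.46 and RP sarcomas 1, 4 and 5 at -0.80 to -0.53.

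A stretch of chromosome 13 had a like pattern in the sarcomas, at 65 to 66 Mb, where the bins with the lowest unadjusted p lie. The segment from 65546886 to 65596238, with 5 markers, stood at 0.51, 0.55 and 0.77 in AD sarcomas 1, 3 and 4 and at -0.53 and -0.69 in RP sarcomas 2 and 5. The segment from 66156615 to 66162928, with 2 markers, stood at -2.64, -2.39 and -2.99 in the same AD sarcomas. Segments from 65691428 to 66121212 in these AD sarcomas lay between -0.99 and -0.53. In the same RP sarcomas the stretch of the 2 markers stood at 0.89 and 0.85, inside a segment of 21 markers from 65691428 to 66418244. The other 5 sarcomas stayed at the level of the chromosome in both. In these 5 tumours the pair thus departed in opposite directions. AD thymic lymphoma 5 had the same signs as these AD sarcomas, 0.77 and -2.87, but its low value came from a segment of 25 markers. RP thymic lymphoma 7 was also low over the 2 markers, at -0.89 in a segment of 18 markers. Short segments starting from 66418244 to 66431027 lay at -1.86, -2.60 and -2.82 in AD thymic lymphomas 1, 3 and 6. In RP thymic lymphomas 6 and 7 they lay at -3.06 and -2.50. AD 6 and RP 7 each also had a segment there above the chromosome, at -0.35 and 0.19. The segments hold few markers, 2 to 25, and named no gene with an established role. Whether they were inherited with the mixed background or arose in the tumours was not tested.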

How the data were processed

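Copy number was measured by exome sequencing, which samples the genome at captured coding regions, in 14 thymic lymphomas and 10 sarcomas. Build GRCm38 and the tools GATK 4.1.0.0, BWA 0.7.17 and Trim Galore 0.6.5 are listed in the submitters' processing notes, without their roles. Per the file headers, each deposited table lists segments by position, with their marker number and a mean, here read as a log2 copy ratio. The log base, comparison DNA, segmentation settings, centring and handling of normal cells were not given in the sources used here. Read depth is unknown, so error is measured only between tumours, and nothing in the labels ties 2 tumours to 1 animal.

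Bin values were overlap-weighted segment means over 1 Mb (Python 3.11.15, numpy 2.4.6, pandas 2.3.3), as deposited and centred on each tumour's length-weighted autosomal median. AD and RP were compared by two-sided exact permutation tests of the difference in means, over all splits of 7 against 7 or 5 against 5 tumours, with Benjamini-Hochberg adjustment over 19 autosomes or 2388 bins. The difference between tumour types used 100000 permutations, and limma 3.58.1 was an alternative. A local segment departs by at least 0.3 from the median bin of its chromosome in the same tumour, and segments with the same ends in at least 3 tumours were called recurrent. Genes are RefSeq GRCm38.p6 positions. Named were the genes of 4 lists, up to 5 named protein-coding genes of a deep stretch without a listed gene, and the bin with the largest AD minus RP difference on each chromosome; Btaf1, Fgfbp3, Ide, Kif11, Cpeb3, Marchf5, Sfxn1, Matr3 and the other genes of short segments were added after their values were seen. The bins, the lists and the tests were chosen with earlier results of these data known.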

Additional observations from a re-analysis of the deposited data

How the results depend on the processing

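Of 323 values under alternative settings, 302 counted as the same by rules set for each kind. Tested differences had to keep their direction and their side of the threshold. Counts of losses had to stay within a set ratio, and counts of called bins at 0. Thymic lymphoma minus sarcoma differences had to move by less than the SD of the thymic lymphomas. Leaving out 1 tumour could not move a whole-loss count beyond its ratio, so the total of 302 does not measure stability. Results depended most on the call and the centring. On chromosome 13, whole losses numbered 2 AD and 1 RP at -0.5, and 2 RP after centring. On chromosome 18 they numbered 2 AD and 0 RP at -0.5, 7 RP at -0.2, and 2 AD and 1 RP after centring. On chromosome 19 they numbered 1 AD and 2 RP at -0.5, 1 AD when 95% of bins had to be lost, and 1 AD and 2 RP after centring. Tumours with all 3 losses numbered 9 at -0.2, 1 at -0.5 and 1 after centring. The bins below an unadjusted p of 0.05 in sarcomas numbered 2, where 0 passed after adjustment. Leaving out 1 tumour at a time moved AD minus RP in thymic lymphomas between -0.14 and -0.03 on chromosome 13, 0.0081 and 0.09 on chromosome 18, and 0.05 and 0.15 on chromosome 19. In sarcomas it moved between -0.04 and -0.02, between -0.10 and -0.04, and between -0.026 and 0.0365, with a change of sign only on chromosome 19. The adjusted p of these contrasts ran from 0.172 to 1.0 over all settings. Without AD thymic lymphomas 6 and 7, a setting chosen after seeing the data, 0 bins were called. AD and RP tumours could not be paired, because no number in the labels is shared between tumours. The ears that share a number with a tumour were not analysed. The centring of the deposited ratios, the comparison DNA and the share of normal cells are unknown, so depth of loss cannot be turned into a number of copies.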

Other observations

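Further short segments left the level of their chromosome at single genes. Sfxn1, a mitochondrial serine transporter on chromosome 13, had a segment of 11 markers with the same ends, 54085459 and 54106506, in 9 tumours. It stood above the chromosome in AD thymic lymphomas 2, 4 and 6, by 0.75 to 0.97, in RP thymic lymphomas 5, 6 and 7, by 1.07 to 2.59, and in RP sarcoma 2, by 0.71. It stood below in AD sarcomas 2 and 3, at -0.88 and -0.81. Whether this segment was inherited with the mixed background or arose in the tumours was not tested. Matr3, a nuclear matrix and RNA-binding protein on chromosome 18, was above its chromosome in 3 AD and 4 RP thymic lymphomas and in 0 sarcomas, by 0.54 to 0.59 in AD and 0.36 to 0.45 in RP, over 4 to 14 markers with ends that varied. In RP thymic lymphoma 6 a segment of 14 markers over Apc lay at 0.06, against -0.36 for the median bin of the chromosome.

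AD thymic lymphomas 6 and 7, the tumours with the most segments, shared short losses that no other tumour had. They lay over the histone genes around H1f2 on chromosome 13 (-1.45 and -1.31), over Cdk2ap2 (-1.02 and -1.34), over Ppp1ca, a catalytic subunit of protein phosphatase 1 (-0.80 and -1.07), and over Bad, which promotes cell death (-0.91 and -1.47), all on chromosome 19 but the first. They rest on 4 to 11 markers each. AD thymic lymphoma 7 had further histone gene losses at 21715762 to 21831846 (-1.25) and 23531114 to 23698137 (-1.37). Whether the number of segments in these tumours bears on these losses was not tested.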
